A study of Homo sapiens with 6 samples.

Results

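HERVL-int, ERVL-int, MLT2A1 and MLT2A2 are repeat names of the ERVL class of endogenous retroviruses, and their RNA was compared between RSeT cells given DZNep and TSA, RSeT cells and primed cells of the human embryonic stem cell line H9. They were chosen by name, and all 4 of 4 were found among the 15600 repeat names of the raw count matrix. All 4 were among the 4665 repeats with enough counts to be tested, of which 1136 are interspersed repeats, the copies of transposons scattered through the genome. The members were proposed with earlier results of these data known.

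ERVL elements are old retroviral insertions that carry no envelope gene. An insertion consists of an internal part flanked by long terminal repeats (LTRs), which hold the promoter, and most copies have lost the internal part and remain as solitary LTRs. HERVL-int and ERVL-int name internal parts, and MLT2A1 and MLT2A2 name LTRs that flank HERVL. In the human embryo, HERVL with MLT2A1 is transcribed at the 8-cell stage, when the embryo's own genome is switched on, and the transcription factor DUX4 activates it. The mouse counterpart, MERVL, marks the cells that resemble the mouse embryo at genome activation.

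Total RNA was sequenced from 6 libraries, 2 in each group, and all groups come from the same line. RSeT+DT cells were held in RSeT, a commercial medium for a naive-like state, to which DZNep (10 nM) and TSA (5 nM) had been added, for 48 hours. DZNep lowers the methyltransferase EZH2 of the Polycomb complex PRC2, and TSA (trichostatin A) inhibits histone deacetylases. RSeT cells had the medium with neither compound, and primed cells were held in mTeSR, in which human embryonic stem cells resemble a later stage of the embryo. H9 is 1 line, so no value here covers differences between lines. Whether the 2 libraries of a group came from separate cultures is not in the labels, so p-values cover library spread that may be purely technical.

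Counts assigned to repeats summed to between 11520770 and 38312112 per library, the highest being RSeT replicate 1. The members together took 0.12% and 0.122% of them in RSeT+DT, 0.151% and 0.157% in RSeT and 0.129% and 0.134% in primed cells. The RNA of the signal recognition particle, 7SLRNA, took 19.2% to 21.3% in RSeT+DT, 14.1% to 14.7% in RSeT and 20.5% to 22.1% in primed cells, so a share of all counts moves with it. The retroviral RNAs HERVH-int and LTR7, which mark pluripotent cells, summed to 129623 and 133858 CPM (counts per 1000000 counted) in RSeT+DT, 82859 and 85275 CPM in RSeT and 27150 and 30093 CPM in primed cells. HERVH-int alone took 11.5% to 11.9% of counts in RSeT+DT, 7.3% to 7.6% in RSeT and 2.4% to 2.7% in primed cells. A share of all counts therefore moves with HERVH-int too. The repeats LTR7Y, LTR5_Hs and HERVK-int, taken as marks of the naive-like state, summed to 20848 and 21551 CPM in RSeT+DT and 23265 and 24151 CPM in RSeT, against 692 and 742 CPM in primed cells. Most of the sum in RSeT+DT and RSeT was HERVK-int, with means of 17005 and 19649 CPM. LTR7Y and LTR5_Hs instead had higher means in RSeT+DT (72.6 and 4122 CPM) than in RSeT (61.9 and 3997 CPM). The labels were checked against these repeats alone, as no values per gene were used here.

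Levels are given on 2 scales. The deposited CPM divides each count by the summed repeat counts of its library. TMM-scaled CPM, used for the tests, also applies a factor per library (the trimmed mean of M-values) that sets the typical tested repeat level between libraries, and 3433 of the 4665 tested repeats are simple repeats. A further scaling, called interspersed scaling here, leaves out simple repeats, small RNA and ribosomal RNA before the factors are computed. The median interspersed repeat moved by 0.22 (log2) under interspersed scaling relative to TMM when RSeT+DT was set against RSeT. The shift was -0.16 when RSeT was set against primed cells, and 0.058 when RSeT+DT was. Library totals alone shifted the same 3 medians by -0.15, -0.13 and -0.29. Each value sums all genomic copies of a repeat, with no position and no copy length, so levels are compared between groups and not between members. Related subfamilies may share reads, reads of a host gene's transcript are counted at copies inside it, and the strand setting is unknown, so members are uncertain to that extent. In bulk RNA, fewer cells with the RNA and less RNA per cell cannot be told apart.

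HERVL-int, the internal part of HERVL, was highest in RSeT cells. It had 6986 and 6439 counts in RSeT+DT, 28643 and 13318 in RSeT and 10668 and 9047 in primed cells. In deposited CPM this was 535 and 559 in RSeT+DT, 748 and 775 in RSeT and 634 and 664 in primed cells. After TMM scaling it was 602 and 608 in RSeT+DT, 745 and 769.8 in RSeT and 587 and 591 in primed cells. Both RSeT libraries were above all others on both scales, while RSeT+DT lay below primed cells in deposited CPM and just above them after TMM scaling.

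MLT2A1, an LTR of HERVL, varied less. It had 196 and 198 deposited CPM in RSeT+DT, 252 and 267 in RSeT and 243 and 255 in primed cells. With TMM scaling these were 221 and 216 in RSeT+DT, 251 and 265 in RSeT and 225 and 227 in primed cells. RSeT and primed cells overlapped in deposited CPM but not after TMM scaling, and the RSeT+DT libraries were lowest on both scales.

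MLT2A2, the other LTR of HERVL, was lowest in primed cells. Its deposited CPM was 401 and 394 in RSeT+DT, 439 and 449 in RSeT and 351 and 357 in primed cells. TMM scaling gave 451 and 429 in RSeT+DT, 438 and 446 in RSeT and 325 and 318 in primed cells, so that RSeT+DT and RSeT overlapped and both lay above primed cells.

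ERVL-int, an internal part that is listed apart from HERVL-int, was the least abundant by count. It had 850 and 790 counts in RSeT+DT, 2889 and 1313 in RSeT and 1017 and 858 in primed cells. The counting error alone was 3.56% of the value at 790 counts, against 0.591% for HERVL-int at 28643 counts. In deposited CPM it stood at 65.1 and 68.6 in RSeT+DT, 75.4 and 76.4 in RSeT and 60.4 and 63.0 in primed cells. After TMM scaling the RSeT+DT libraries, at 73.3 and 74.6, came within 3 CPM of the RSeT libraries at 75.1 and 75.9, while the primed libraries were at 55.9 and 56.0.

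**Figure D1:**
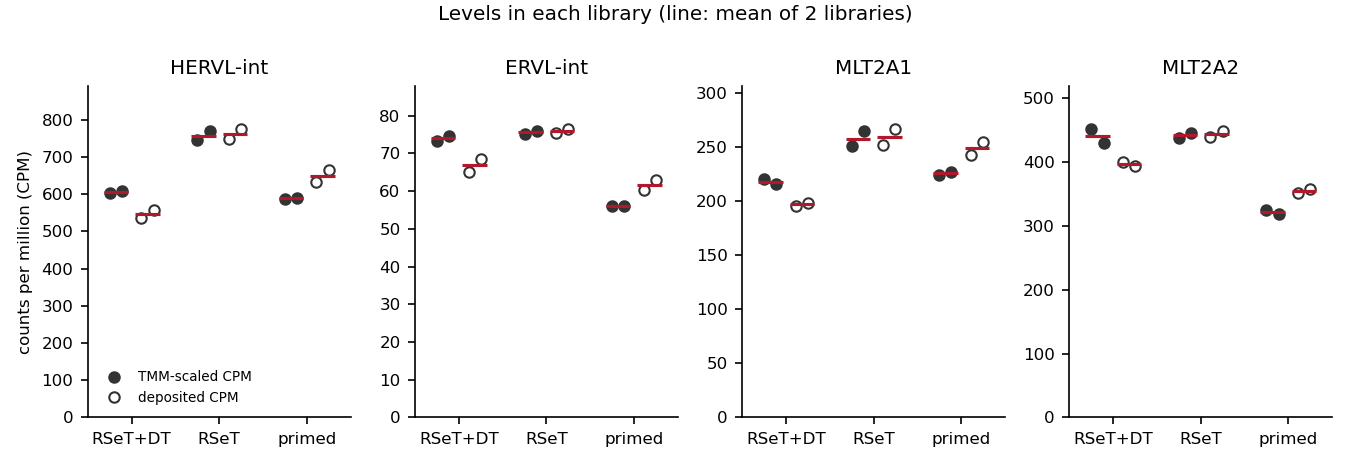
CPM of each repeat in each library, RSeT+DT, RSeT and primed from left to right. Filled points are TMM-scaled, open points are the deposited CPM, and lines are means of 2 libraries. HERVL-int is highest in the RSeT libraries on both scales. MLT2A1 is highest there after TMM scaling, while its RSeT and primed libraries overlap in deposited CPM. ERVL-int and MLT2A2 in RSeT+DT stay near their RSeT level after TMM scaling and below it in deposited CPM.

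RSeT+DT cells were set against RSeT cells because the series concerns the repression of an 8-cell-like state and Polycomb, which DZNep affects. HERVL-int and MLT2A1 fell, and none of the 4 rose with TMM scaling. HERVL-int averaged 605 ± 4.02 TMM-scaled CPM in RSeT+DT cells and 757 ± 17.5 in RSeT cells (SD, n = 2 each). It fell by 20.1%, a log2 fold change of -0.32 with an SE of 0.044 and an adjusted p of 1.04e-06 by edgeR's quasi-likelihood test. MLT2A1 averaged 218 ± 3.38 TMM-scaled CPM in RSeT+DT and 258 ± 9.99 in RSeT cells, with a log2 fold change of -0.24 (SE 0.038, adjusted p = 1.11e-05 in edgeR). MLT2A2 had a log2 fold change of -0.0058 with a 95% interval of -0.093 to 0.081, and ERVL-int one of -0.030 with an interval of -0.14 to 0.084, neither passing.

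These calls stand against a background in which most interspersed repeats were lower. With TMM, 54.7% of the 1136 interspersed repeats were called lower and 5.63% higher in RSeT+DT, and over all 4665 tested repeats 17.4% (810) were lower and 25.1% (1170) higher. Library totals turned that split to 1156 lower and 790 higher. A count of 2 lower of 4 is close to the 54.7% of interspersed repeats. HERVL-int stood at percentile 31.4 and MLT2A1 at percentile 46.3 of the interspersed repeats ordered by log2 fold change, where 100 is the most raised. MLT2A2 and ERVL-int stood at percentiles 82.1 and 80.2. The median of the members was -0.13, against -0.22 for all interspersed repeats. In deposited CPM the RSeT+DT libraries of all 4 lay below both RSeT libraries, as they did for 85.9% of interspersed repeats, while 4.67% lay above.

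Under interspersed scaling 2 of the 4 rose and 1 fell, where 22.4% of interspersed repeats were called higher and 20.7% lower. MLT2A2 rose by 0.21 and ERVL-int by 0.19 on the log2 scale, HERVL-int still fell, by 0.10, and MLT2A1 stood at -0.018, not passing. With library totals all 4 were lower with a call, from -0.48 for HERVL-int to -0.16 for MLT2A2. The median interspersed repeat stood at -0.38 under that scaling, so ERVL-int and MLT2A2 fell less than it. The shares of interspersed repeats called higher or lower with library totals were not counted, here or in the other comparisons. The fall of HERVL-int was thus the one call among the members that held under each of these scalings, and its size ranged from 0.10 to 0.48 on the log2 scale.

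RSeT cells were set against primed cells to ask whether the naive-like culture itself differs. All 4 rose with TMM scaling. MLT2A2 rose most of the 4, to 442 ± 5.54 TMM-scaled CPM in RSeT, against 322 ± 5.05 in primed cells (SD, n = 2 each), a log2 fold change of 0.46 (SE 0.042, adjusted p = 1.52e-09 in edgeR). ERVL-int averaged 75.5 ± 0.532 TMM-scaled CPM in RSeT and 56.0 ± 0.0722 in primed cells, with a log2 fold change of 0.43 (SE 0.054, adjusted p = 3.22e-07 in edgeR). HERVL-int rose by 0.36 (SE 0.043, adjusted p = 1.48e-07 in edgeR) and MLT2A1 by 0.19 (SE 0.037, adjusted p = 0.00015 in edgeR).

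In the same comparison 50.8% of interspersed repeats were called higher and 8.01% lower, and over all tested repeats 22.8% (1064) were higher and 23.8% (1110) lower, against 683 and 1533 with library totals. MLT2A2 stood at percentile 80.7, ERVL-int at 78.9, HERVL-int at 73.4 and MLT2A1 at 53.3 of the interspersed repeats. The median of the members was 0.40, against 0.16 for all interspersed repeats. In deposited CPM, 3 of the 4 lay above primed cells without overlap, MLT2A1 being the exception, where 42.1% of interspersed repeats lay above and 32.3% below. Under interspersed scaling 3 of the 4 rose, against 29.8% of interspersed repeats called higher and 26.3% lower. There MLT2A2 rose by 0.30, ERVL-int by 0.27 and HERVL-int by 0.20, while MLT2A1 stood at 0.026, not passing. With library totals the same 3 rose, by 0.33, 0.30 and 0.23, and MLT2A1 was at 0.057, not passing. The median interspersed repeat was at 0.032 under that scaling.

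RSeT+DT cells were set against primed cells as the combined change of medium and compounds. ERVL-int and MLT2A2 rose, and HERVL-int and MLT2A1 did not pass with TMM. MLT2A2 averaged 439.9 ± 15.8 TMM-scaled CPM in RSeT+DT and 322 ± 5.05 in primed cells, a log2 fold change of 0.45 (SE 0.043, adjusted p = 2.57e-09 in edgeR). ERVL-int averaged 73.9 ± 0.927 TMM-scaled CPM in RSeT+DT and 56.0 ± 0.0722 in primed cells, a log2 fold change of 0.40 (SE 0.059, adjusted p = 3.90e-06 in edgeR). HERVL-int stood at 0.039 (95% interval -0.051 to 0.13) and MLT2A1 at -0.050 (-0.13 to 0.029).

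Here 24.4% of interspersed repeats were called higher and 34.3% lower with TMM, and 25.1% (1173) and 20.6% (962) over all tested repeats, against 609 and 1787 with library totals. MLT2A2 was at percentile 87.2, ERVL-int at 85.9, HERVL-int at 59.8 and MLT2A1 at 51.9. The members' median of 0.22 compares with -0.068 for all interspersed repeats. In deposited CPM MLT2A2 and ERVL-int lay above primed cells without overlap and HERVL-int and MLT2A1 below, where 14.5% of interspersed repeats lay above and 71% below. Interspersed scaling called 32.1% of interspersed repeats higher and 29.6% lower, and 3 of the 4 members higher, with HERVL-int at 0.098, ERVL-int at 0.46 and MLT2A2 at 0.51, while MLT2A1 was at 0.0082, not passing. With library totals the directions split, with HERVL-int at -0.25 and MLT2A1 at -0.34 lower with a call, MLT2A2 at 0.17 higher with a call and ERVL-int at 0.12, not passing. The median interspersed repeat was at -0.35 under that scaling. The 3 comparisons share groups pairwise, so they are not independent of each other.

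**Figure D2:**
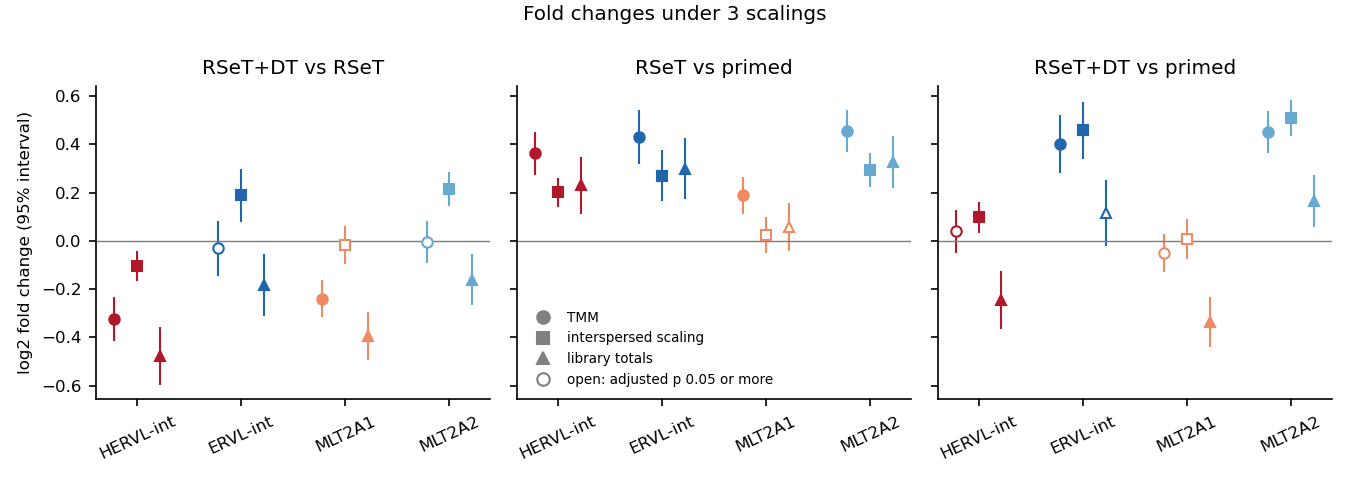
Log2 fold changes of each repeat, first-named group over second, with 95% intervals, under TMM (circles), interspersed scaling (squares) and library totals (triangles); open symbols have an adjusted p of 0.05 or more. In RSeT+DT against RSeT, HERVL-int is below 0 under all 3 scalings, while ERVL-int and MLT2A2 change sign.

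**Figure D3:**
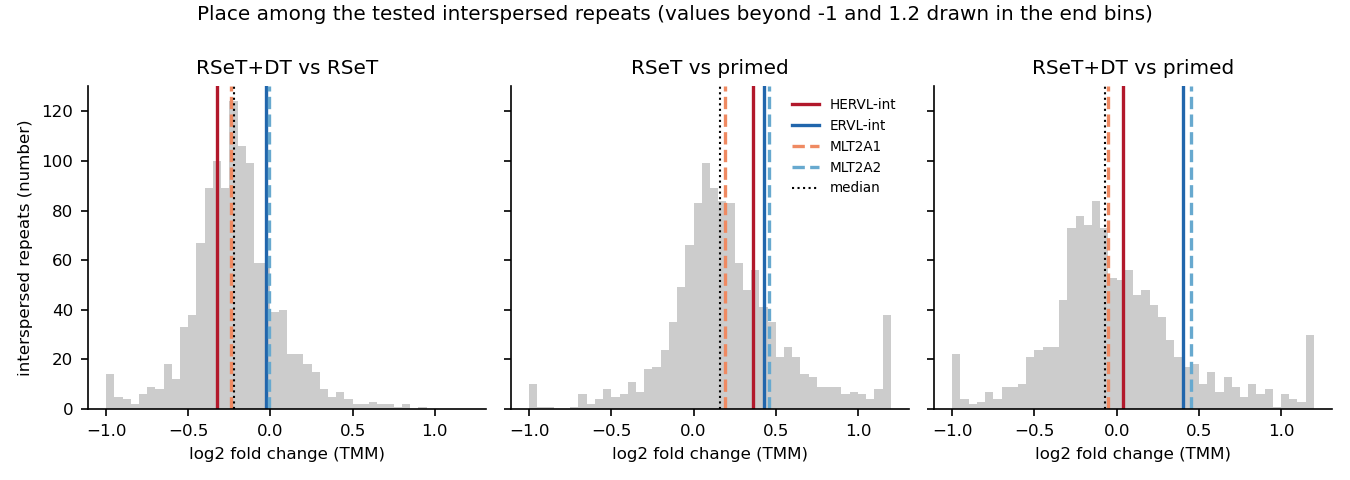
Number of tested interspersed repeats by log2 fold change with TMM (grey bars, bins of 0.05), with lines at the 4 repeats and a dotted line at the median. MLT2A1 lies near the median in each comparison, and MLT2A2 and ERVL-int lie to its right in each.

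Ratios of 2 repeats within a library do not depend on the scaling between libraries, and how they divide the members depends on the comparison. No difference in the ratio of ERVL-int to MLT2A2 passed, whereas HERVL-int and MLT2A1 both fell relative to these 2 in RSeT+DT, against RSeT and against primed cells. When RSeT was set against primed cells, MLT2A1 alone differed from the other 3 with a call. The count of ERVL-int over that of MLT2A2 was 0.162 and 0.174 in RSeT+DT, 0.172 and 0.170 in RSeT and 0.172 and 0.176 in primed cells, so that RSeT+DT overlapped both other groups, while primed libraries were just above the RSeT ones. The test added for ratios after the data were seen was a limma fit of the log2 ratio of each tested repeat to 1 member, adjusted over all of them. The 18 differences among members examined are not independent, since ratios share members and comparisons share groups. In this fit the ratio of ERVL-int to MLT2A2 differed between RSeT+DT and RSeT by -0.024 (95% interval -0.16 to 0.12), between RSeT and primed by -0.027 (-0.17 to 0.11) and between RSeT+DT and primed by -0.051 (-0.19 to 0.089), none passing.

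The ratio of MLT2A1 to MLT2A2, both LTRs of HERVL, was 0.489 and 0.503 in RSeT+DT, 0.573 and 0.594 in RSeT and 0.691 and 0.714 in primed cells. No 2 groups overlapped. Its log2 difference was -0.23 for RSeT+DT against RSeT (SE 0.053, adjusted p = 0.00135, limma), -0.27 for RSeT against primed (adjusted p = 0.000188, limma) and -0.50 for RSeT+DT against primed (adjusted p = 6.67e-08, limma). Each of these calls also passed with any of the 6 libraries left out. MLT2A1 was not alone in this, since 49.6%, 60.2% and 75.3% of interspersed repeats were called lower relative to MLT2A2 in these comparisons.

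HERVL-int over MLT2A2 was 1.34 and 1.42 in RSeT+DT, 1.70 and 1.73 in RSeT and 1.80 and 1.86 in primed cells. The log2 difference was -0.32 for RSeT+DT against RSeT (SE 0.050, adjusted p = 3.21e-05, limma) and -0.41 for RSeT+DT against primed (adjusted p = 4.40e-07, limma). For RSeT against primed it was -0.095 and did not pass (95% interval -0.20 to 0.0092), although it did without either RSeT+DT library (adjusted p = 0.0208 in limma for both), which leaves the value as it is and changes the pooled spread. The RSeT+DT libraries thus had the lowest ratio, outside the range of the other 4 libraries.

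The ratio of the 2 internal parts was also lowest in RSeT+DT. HERVL-int had 8.22 and 8.15 counts per count of ERVL-int in RSeT+DT, 9.91 and 10.1 in RSeT and 10.5 and 10.5 in primed cells. The log2 difference was -0.29 for RSeT+DT against RSeT (SE 0.033, adjusted p = 5.38e-06, limma), where 48.4% of interspersed repeats were called lower relative to ERVL-int. It was -0.36 for RSeT+DT against primed (adjusted p = 2.13e-07, limma), where 72.1% were, and -0.068 for RSeT against primed, not passing (adjusted p = 0.0853, limma). Without RSeT+DT replicate 1 or 2 that last difference passed as well (adjusted p = 0.0362 and 0.0363, limma).

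The ratio of HERVL-int to the LTR MLT2A1 differed with a call in RSeT against primed cells and in neither comparison with RSeT+DT. There were 2.73 and 2.82 counts of HERVL-int per count of MLT2A1 in RSeT+DT, 2.97 and 2.91 in RSeT and 2.61 and 2.60 in primed cells. The ratio was higher in RSeT than in primed cells by 0.17 on the log2 scale (SE 0.048, adjusted p = 0.00487, limma), where 22.5% of interspersed repeats were called higher relative to MLT2A1. That call did not pass without primed replicate 1 (adjusted p = 0.0585, limma) or primed replicate 2 (adjusted p = 0.0685, limma). Between RSeT+DT and RSeT the difference was -0.083 (95% interval -0.18 to 0.017), and between RSeT+DT and primed 0.090 (-0.0093 to 0.19), neither passing.

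ERVL-int over MLT2A1 was 0.332 and 0.346 in RSeT+DT, 0.300 and 0.286 in RSeT and 0.249 and 0.247 in primed cells, the reverse order of the LTR ratio. Its log2 value is that of ERVL-int over MLT2A2 minus that of MLT2A1 over MLT2A2, so it is not a separate result. The log2 difference was 0.21 for RSeT+DT against RSeT (adjusted p = 0.0181, limma), 0.24 for RSeT against primed (adjusted p = 0.00705, limma) and 0.45 for RSeT+DT against primed (adjusted p = 1.10e-05, limma). Relative to MLT2A1, 19.2% of interspersed repeats were called higher in RSeT+DT against RSeT and 27.3% in RSeT+DT against primed cells. The call for RSeT+DT against RSeT was lost without RSeT+DT replicate 2 (adjusted p = 0.0863, limma) or RSeT replicate 2 (adjusted p = 0.112, limma). That for RSeT against primed was lost without RSeT replicate 1 (adjusted p = 0.0521, limma) or primed replicate 2 (adjusted p = 0.0601, limma). With 2 libraries against 2, the exact two-sided permutation test of any such ratio cannot go below p = 0.33, so these calls rest on the spread that limma pools over repeats.

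**Figure D4:**
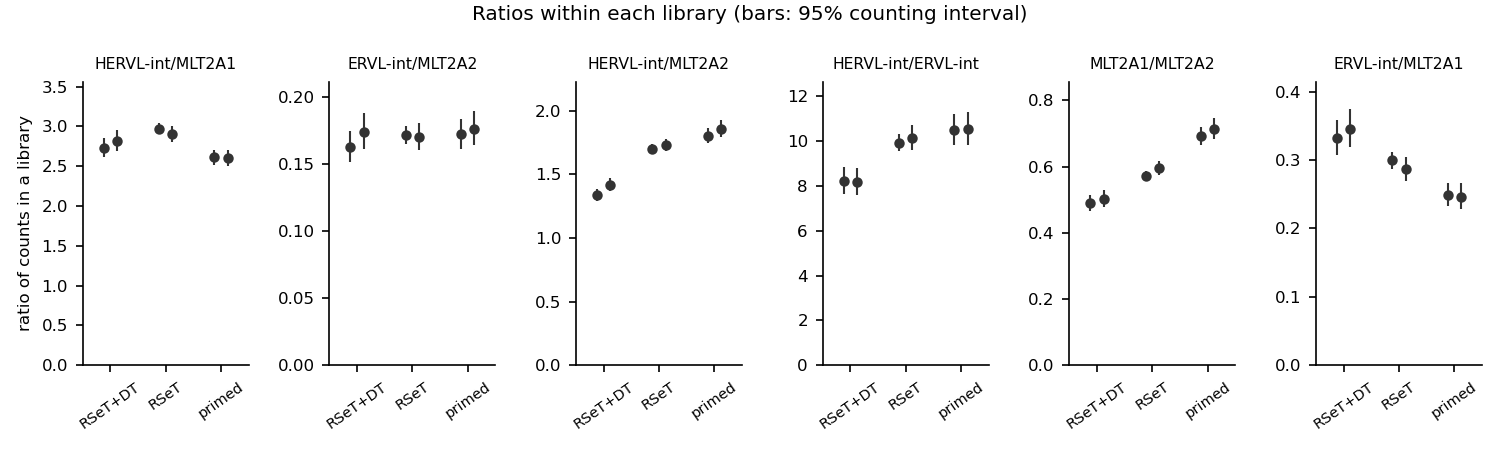
Ratio of the counts of 2 repeats within each library, RSeT+DT, RSeT and primed from left to right, with bars for the 95% counting interval. ERVL-int over MLT2A2 stays between 0.162 and 0.176, while MLT2A1 over MLT2A2 is lowest in RSeT+DT and highest in primed cells.

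Computed from the same levels, the distance between members describes them over all 6 libraries at once, where distance is the root mean square difference of centred log2 levels after TMM scaling. It was 0.037 between ERVL-int and MLT2A2 and 0.072 between HERVL-int and MLT2A1, against 0.16 to 0.21 for the other 4 pairs. The 5 nearest repeats were then listed for each member, with the 4 members left out. Candidates were repeats other than simple repeats with a mean count of at least 50. Nearest to HERVL-int were the LINE1 subfamilies L1MCa (0.024), L1M3f (0.026), L1PA17 (0.026) and L1MD2 (0.026) and the DNA transposon Tigger1 (0.031), where the median repeat was at 0.16. Nearest to MLT2A1 were MLT1I-int (0.013), MLT1A0 (0.017), Charlie10 (0.020), MamRep4096 (0.021) and MLT1N2 (0.025), of which the MLT1 names belong to the related MaLR elements. ERVL-int was nearest to MER77 (0.021), SVA_F (0.027), LTR1A1 (0.027), Charlie9 (0.035) and MER50 (0.038). MLT2A2 was nearest to LTR10F (0.027), MER65C (0.030), LTR1A1 (0.030), MER77 (0.036) and BLACKJACK (0.038), so that MER77 and LTR1A1 stand in the lists of both. Had members been kept, ERVL-int and MLT2A2, 0.037 apart, would each stand among the other's 5 nearest. None of the listed names begins with HERVL, ERVL or MLT2, but a name does not give the class of a repeat. Which of the listed repeats are of the ERVL class was not looked up. These are likenesses over 6 libraries that share depth and scaling, and many repeats follow the same pattern.

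Other repeats of the ERVL class were counted in 3 lists made by name, all members of which were tested: 8 other ERVL internal parts, 10 LTRs from MLT2B to MLT2F, and 9 LTRs named LTR18, LTR32, LTR40 or LTR66, the partners of HERVL18-int, HERVL32-int, HERVL40-int and HERVL66-int. When RSeT+DT was set against RSeT, 5 of 8, 9 of 10 and 4 of 9 fell with TMM and none rose, with medians of -0.19, -0.27 and -0.17. Over all interspersed repeats 54.7% were lower and 5.63% higher and the median was -0.22, so the internal parts and the partner LTRs lie near that background. The falls included HERVL32-int (-0.37), ERVL-E-int (-0.30) and HERVL40-int (-0.27), the LTRs MLT2B5 (-0.38), MLT2B1 (-0.37) and MLT2C1 (-0.32), and LTR40a (-0.25), LTR32 (-0.24) and LTR40c (-0.17). With library totals 24 of these 27 repeats fell and 0 rose, while the median of all interspersed repeats was -0.38. As no share of interspersed repeats called was counted there, 24 of 27 cannot be set against a background. Under interspersed scaling 3 of the 27 rose and 1, MLT2B1, fell, where 22.4% of interspersed repeats were called higher and 20.7% lower. The 3 were HERVL74-int (0.29), MLT2F (0.22) and MLT2B3 (0.11), named after their values were seen.

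In RSeT against primed cells, 5 of 8, 5 of 10 and 5 of 9 rose and 0, 0 and 1 fell, with medians of 0.18, 0.12 and 0.14. All 3 lists lie near the interspersed repeats as a whole, of which 50.8% were higher and 8.01% lower with a median of 0.16. LTR66, the LTR of HERVL66, rose by 1.17 (SE 0.082), more than any of the 4 members, while HERVL66-int stood at 0.075, not passing. Other rises were HERVL32-int (0.61), ERVL-B4-int (0.37) and ERVL-E-int (0.27), MLT2B1 (0.42), MLT2E (0.39) and MLT2F (0.26), and LTR18A (0.47) and LTR40a (0.40). The 1 fall was LTR18C (-0.90), which has a mean count of 49.8, was named after its value was seen and lost the call without RSeT replicate 1. Over the 27, interspersed scaling gave 7 rises and 6 falls, where 29.8% of interspersed repeats were called higher and 26.3% lower. Library totals gave 8 rises and 3 falls, with a median of 0.032 over all interspersed repeats and no background share counted.

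In RSeT+DT against primed cells, 2 of 8, 1 of 10 and 2 of 9 rose and 1, 5 and 3 fell, 9 falls in all, against 5 without primed replicate 2. These 5 rises and 9 falls of 27 are near the shares over all interspersed repeats, 24.4% higher and 34.3% lower. LTR66 rose by 1.02, HERVL74-int by 0.33, MLT2F by 0.25, ERVL-B4-int by 0.19 and LTR40a by 0.16. MLT2B5 (-0.54), MLT2C1 (-0.30), LTR40c (-0.22), MLT2B4 (-0.18), HERVL40-int (-0.17) and LTR32 (-0.14) fell. With library totals 1 of the 27 rose and 18 fell, while the median of all interspersed repeats was -0.35 and no background share was counted. With interspersed scaling 9 rose and 7 fell, where 32.1% of interspersed repeats were called higher and 29.6% lower.

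**Figure D5:**
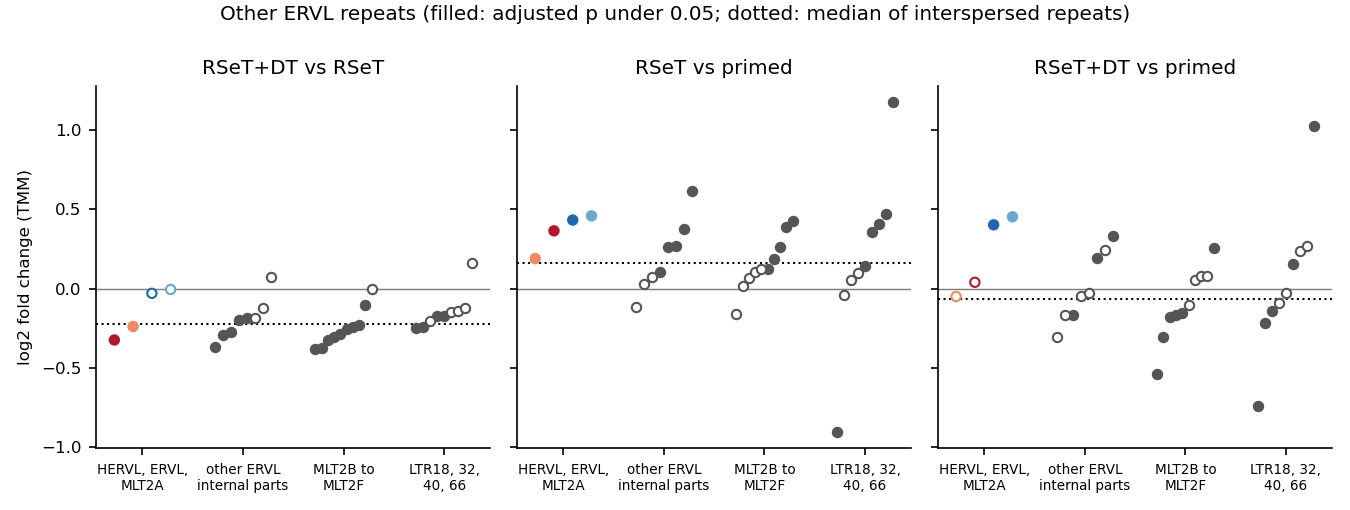
Log2 fold changes with TMM of the 4 repeats (left column of each panel) and of 27 other ERVL repeats in 3 lists; filled points have an adjusted p under 0.05 and the dotted line is the median of all interspersed repeats. LTR66 is the highest point in both comparisons with primed cells.

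Other LTRs tied to the 8-cell stage gave a mixed picture beside these. LTR7B, LTR14B and LTR12C, a HERV9 promoter, summed to 2350 and 2332 CPM in RSeT+DT, 2527 and 2578 CPM in RSeT and 1954 and 2042 CPM in primed cells. In RSeT+DT against RSeT none of the 3 passed with TMM, at -0.044, 0.014 and 0.039. All 3 rose under interspersed scaling, by 0.17, 0.23 and 0.26, where 22.4% of interspersed repeats were called higher and 20.7% lower. LTR12C made up most of these sums, with group means of 1646 CPM (primed), 2215 (RSeT) and 2044 (RSeT+DT). LTR7B and LTR14B had lower mean deposited CPM in RSeT than in primed cells, at 286 against 295 and 51.6 against 56.9. LTR12C rose by 0.56 in RSeT and by 0.60 in RSeT+DT against primed cells, with TMM. LTR7B rose by 0.087 in RSeT against primed cells with TMM but stood at -0.073 under interspersed scaling, not passing. In that comparison and scaling LTR14B fell with a call (-0.17) and LTR12C rose with a call (0.40). For RSeT+DT against primed cells, interspersed scaling gave rises with a call of LTR7B (0.10) and LTR12C (0.66), while LTR14B stood at 0.063, not passing.

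Markers of another cell type split in direction. LTRs and internal parts used in trophoblast (LTR17, HERV17-int, LTR10A, MER21A, MER41B and LTR2B), 6 of 6 of which were above 0 in each library, summed to 1560 and 1538 CPM in RSeT+DT, 1581 and 1618 CPM in RSeT and 1139 and 1191 CPM in primed cells. Of these 6, 2 were higher and 3 lower with a call when RSeT+DT was set against RSeT with TMM, beside 5.63% and 54.7% of interspersed repeats. Under interspersed scaling 3 were higher and 0 lower, beside 22.4% and 20.7%. Against primed cells, 3 were higher and 2 lower in RSeT+DT with TMM, beside 24.4% and 34.3% of interspersed repeats. In RSeT 3 were higher and 1 lower with TMM, beside 50.8% and 8.01%, or 2 lower under interspersed scaling, beside 26.3%. Their part in the values of the 4 members was not tested.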

How the data were processed

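The submitters' processing notes name Trimmomatic 0.39, STAR 2.7.8a, featureCounts, Subread 2.14.2 and GRCh38/hg38. Which repeat annotation was used, and how multi-mapping reads and strand were handled, is not stated in those notes or the labels. The authors deposited raw counts for 15600 repeat names and a CPM table of 7383 of them, in which each value equals the count over the summed listed counts within 0.00442 CPM.

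Counts were tested with edgeR 4.0.16 (R 4.3.3), using filterByExpr (minimum count 10, total 15), TMM and one quasi-likelihood fit of the 6 libraries by group. P-values were adjusted by Benjamini-Hochberg over 4665 repeats at 0.05. The spread was estimated with 3 residual degrees of freedom and a common biological coefficient of variation of 5.49%. Ratios were fitted with limma 3.58.1 (prior count 2, trend). The edgeR fit was tested on simulated data for RSeT+DT against RSeT, in which all repeats had the same spread. At each size 50 of the 4665 repeats were changed, as many up as down. In these simulated data the fit recovered 36% of log2 changes of 0.25 and 76% of those of 0.5, and called 0.179% of unchanged repeats. The real calls were more numerous and uneven between classes of repeat, so these rates need not hold for them.

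Repeats were classed by name. Members and lists were chosen with earlier results of these data known. Named repeats are the 4 members, per list and comparison the 3 largest rises and falls that passed with a mean count of at least 50, the 5 repeats nearest to each member (members left out), and a set of markers. Alternatives were RLE factors, library totals, interspersed scaling, DESeq2 1.42.0, no filter or a minimum mean count of 50, limma with 1 or 0.1 added to the deposited CPM, a replicate block, only the groups compared and each library left out. Chi-square values per degree of freedom between replicates were 5.59 to 31.5, above sampling noise. Counting intervals cover counting error only.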

Additional observations from a re-analysis of the deposited data

How the results depend on the processing

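Leaving out any 1 library kept each call and non-call of the 4 members and their number higher and lower in all 3 comparisons. MLT2A2 in RSeT+DT against RSeT ranged from -0.043 to 0.045 and the log2 ratio of ERVL-int to MLT2A2 from -0.073 to 0.025 in these fits, neither with a call. The number of other ERVL repeats lower ranged from 0 (without RSeT replicate 1) to 1 in RSeT against primed cells and from 5 (without primed replicate 2) to 8 in RSeT+DT against primed cells. RLE factors, no filter, DESeq2 and only the groups compared changed no call of the members. DESeq2 called 686 repeats lower in RSeT against primed cells, against 1110 in edgeR. With a replicate block HERVL-int stood at -0.32 in RSeT+DT against RSeT, 1148 repeats rose and 801 fell there, and no call of the members changed. Same-numbered libraries correlated in their deviations at -0.0064, 0.086 and -0.033 over 2942 repeats. With 2 numbers only, this cannot show whether same-numbered libraries were paired, and the labels do not say.

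The scaling changed most. In RSeT+DT against RSeT, library totals gave ERVL-int -0.18 and MLT2A2 -0.16, both with a call, and 4 members lower. The median interspersed repeat stood at -0.38 with library totals. Limma on deposited CPM plus 1 gave -0.18 and -0.16, 4 members lower and 770 repeats higher, and plus 0.1 gave -0.18, -0.16, 4 and 758. Interspersed scaling turned ERVL-int to 0.19 and MLT2A2 to 0.21 and left MLT2A1 at -0.018 without a call, with 2 members higher and 1 lower, 261 repeats higher and 239 lower, and 3 other ERVL repeats higher and 1 lower. This scaling tests fewer repeats, since simple repeats are left out.

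In RSeT against primed cells MLT2A1 lost its call with library totals (0.057), interspersed scaling (0.026) and limma on deposited CPM plus 1 (0.058) or 0.1 (0.058). All repeats higher numbered 683, 346, 641 and 622 in these settings, and other ERVL repeats higher 8, 7, 9 and 8. Other ERVL repeats lower numbered 3 with library totals, 6 with interspersed scaling and 0 at a mean count of at least 50, and interspersed scaling called 305 repeats lower in all.

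In RSeT+DT against primed cells HERVL-int turned to -0.25 with library totals and with limma on either CPM, each with a call, and to -0.041 without one at a mean count of at least 50. It rose with a call under interspersed scaling (0.098). ERVL-int lost its call at 0.12 with library totals and at 0.11 and 0.12 with limma plus 1 and plus 0.1. MLT2A1 fell with a call at -0.34 in all 3 of these and at -0.13 at a mean count of at least 50, and stood at 0.0082 under interspersed scaling. Members higher and lower numbered 1 and 2 with library totals and either limma fit, and 1 member was lower at a mean count of at least 50. All repeats higher and lower numbered 609 and 1787 with library totals, 628 and 1895 with limma plus 1, 621 and 1841 with limma plus 0.1, and 372 and 341 with interspersed scaling. Other ERVL repeats higher and lower numbered 1 and 18 with library totals and either limma fit, and 9 were higher with interspersed scaling. The cause of the differences beyond the scaling itself was not tested. With 790 to 2889 counts per library, ERVL-int limits what its ratios can show.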
